A study of Mus musculus with 9 samples.

Results

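The 8 transcripts described here, Col1a1, Col1a2, Col3a1, Dcn, Lum, Pdgfra, Angptl2 and Igf2, are carried in the brain by perivascular fibroblasts. They were looked up by symbol among the 23420 genes of an expected count matrix with 9 columns, and all 8 had a row. The set was chosen by its measured levels and genotype differences in these same libraries, so the levels and differences below are descriptions, with no test of their own. The matrix came from Smart-seq2 libraries of 20000 cells each, sorted from brain homogenate of C57BL/6 mice aged 6 months by the endothelial surface protein CD31 and the absence of the leukocyte protein CD45. Of the 3 genotypes, with 3 libraries each, APP/PS1xRIPK1KD carried an alteration of Ripk1 on top of the APP/PS1 transgenes, APP/PS1 carried the transgenes alone, and WT carried neither. APP/PS1 mice express mutant forms of the amyloid precursor protein and of presenilin 1 and deposit amyloid in the brain. What KD stands for and which promoter drives the transgenes are not given in the sources used here. The comparisons ask how far the transcript levels of the sorted cells differ with the amyloid model and with Ripk1 altered in it. APP/PS1xRIPK1KD is compared with APP/PS1 and with WT, and APP/PS1 with WT.

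Perivascular fibroblasts lie outside the endothelium and the mural cells of arterioles and venules of the brain, and a related population fills the meninges. They secrete fibrillar collagen and small leucine-rich proteoglycans, which bind collagen fibrils and set their diameter. Type I collagen is a trimer of chains from Col1a1 and Col1a2, and type III collagen is made of the Col3a1 chain alone. Endothelial cells and pericytes also make some of these products, and Pdgfra marks oligodendrocyte precursor cells as well.

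The matrix transcripts are shown by the 250 bases upstream of the RefSeq start of 3 members, Col1a2 and Col3a1 as the fibrillar chains with most counts and Angptl2 as the transcript nearest to absent in WT among the members with a matched promoter. RefSeq promoters (GRCm38.p6) were matched for 5 of the 8 members. Each stretch is given 5′ to 3′ on the + strand, on which all 3 genes lie, at chr6:4505368-4505617 for Col1a2, chr1:45311288-45311537 for Col3a1 and chr2:33215711-33215960 for Angptl2. Capitals mark matches, on either strand, to CCAAT (the CCAAT box), TATAAA (the TATA box) or GGGCGG (the GC box). The matches shown do not overlap each other.
Col1a2: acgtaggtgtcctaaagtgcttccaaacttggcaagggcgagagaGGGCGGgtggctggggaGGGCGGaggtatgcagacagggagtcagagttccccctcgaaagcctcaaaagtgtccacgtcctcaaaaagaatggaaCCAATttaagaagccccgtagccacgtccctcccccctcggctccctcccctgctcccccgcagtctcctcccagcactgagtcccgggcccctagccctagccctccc
Col3a1: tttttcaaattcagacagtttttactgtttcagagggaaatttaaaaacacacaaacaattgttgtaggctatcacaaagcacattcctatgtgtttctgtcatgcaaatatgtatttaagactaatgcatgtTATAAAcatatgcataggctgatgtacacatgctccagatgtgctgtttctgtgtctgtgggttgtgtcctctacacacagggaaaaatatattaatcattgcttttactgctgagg
Angptl2: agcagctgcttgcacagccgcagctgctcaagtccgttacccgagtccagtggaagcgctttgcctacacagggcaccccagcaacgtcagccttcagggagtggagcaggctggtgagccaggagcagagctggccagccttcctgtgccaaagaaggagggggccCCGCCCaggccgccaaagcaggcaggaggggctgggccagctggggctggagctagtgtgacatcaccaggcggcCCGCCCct
The Col1a2 stretch held 1 CCAAT and 2 GGGCGG matches, the Col3a1 stretch 1 TATAAA match, and the Angptl2 stretch 2 matches to GGGCGG, both on the other strand. Of 32841 promoter windows of the same length, 33.9% held CCAAT, 12.4% held TATAAA and 32.7% held GGGCGG. A match is a string of letters in the window and was not tested as a binding site.

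Library totals ran from 16263792 expected counts in APP/PS1 replicate 1 to 52413200, with a median of 46603518. A floor of 3 counts corresponded to 0.0541 to 0.189 CPM, the expected count scaled to library size by TMM factors, and the library of APP/PS1 replicate 1 had the highest floor. Floors and counting intervals cover counting error only, because the libraries carry no molecular identifiers. Ripk1, the altered gene, stood at 31.4, 44.9 and 35.5 CPM in APP/PS1xRIPK1KD, at 75.3, 52.9 and 40.9 CPM in APP/PS1 and at 45.0, 48.1 and 35.0 CPM in WT, so its level did not separate APP/PS1xRIPK1KD from WT. The endothelial claudin Cldn5 averaged 7652 ± 665, 6642 ± 1579 and 6830 ± 957 CPM in APP/PS1xRIPK1KD, APP/PS1 and WT (SD, n = 3 each). All 9 mice were labelled male. Replicates 1 and 2 of every genotype held Xist at 264 to 534 CPM with at most 0.434 CPM of 4 Y-linked transcripts, whereas the 3 libraries of replicate 3 held 150 to 185 CPM of the Y-linked transcripts and at most 4.77 CPM of Xist. This split was present in each genotype, and member sums are given for both sides of it.

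The defining fibroblast markers among the 8 differed in whether they were detected at all. Lum had 0 counts in all 9 libraries and Col1a1 had at most 5 counts in 8 of them. Igf2, by contrast, was counted at 41 or more in every library. Of 37 other markers of perivascular and meningeal fibroblasts, Col6a1, Dpt, Ccl11, Aldh1a2 and Twist1 had 0 counts in all 9 libraries. Mgp, which arterial endothelium also expresses, made up 56.2% and Fbln2 29.2% of the summed mean level of those 37. With Lum at 0 and Col1a1 near 0, the 8 are described by gene below. Pearson r of log2 levels over the 9 libraries, which share their genotype structure and depth, was above 0 for 18 of the 21 pairs of the 7 detected transcripts, with a median of 0.268 and a range of -0.337 to 0.921 (Col3a1 and Angptl2). In bulk libraries such as these, fewer cells of a type and less RNA per cell cannot be told apart.

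Col3a1 encodes the single chain of type III collagen and lies on chromosome 1 from 45311538 to 45349706 (GRCm38, GENCODE M21, + strand), a protein-coding gene like all 8. It was counted at 6, 171 and 155 in the libraries of APP/PS1xRIPK1KD, at 67, 97 and 360 in APP/PS1 and at 21, 0 and 7 in WT. All 3 APP/PS1 libraries lay above all 3 WT libraries, and 1 library of APP/PS1xRIPK1KD lay among those of WT. The mean level was 2.27 ± 1.94 CPM in APP/PS1xRIPK1KD, 4.39 ± 2.68 CPM in APP/PS1 and 0.256 ± 0.323 CPM in WT (SD, n = 3 each). On the log2 scale the fitted difference was 4.10 ± 1.36 (SE) for APP/PS1 against WT, 3.15 ± 1.31 for APP/PS1xRIPK1KD against WT and -0.95 ± 1.19 for APP/PS1xRIPK1KD against APP/PS1. Without WT replicate 1, which held 21 of the 28 WT counts, the difference from WT was 5.77 in APP/PS1 and 4.82 in APP/PS1xRIPK1KD. Without APP/PS1xRIPK1KD replicate 2, that of APP/PS1xRIPK1KD was 2.53 against WT and -1.57 against APP/PS1.

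Col1a2, on chromosome 6 from 4504814 to 4541544, encodes the α2 chain of type I collagen. Its expected counts were 5, 0 and 201 in APP/PS1xRIPK1KD, 1, 115 and 95 in APP/PS1 and 0, 4 and 0 in WT. In APP/PS1xRIPK1KD it rested on replicate 3, without which the mean was 0.0510 CPM, against 1.24 ± 2.06 CPM with it. In APP/PS1 it rested on 2 of 3 libraries, with a mean of 1.36 ± 1.13 CPM, against 0.0351 ± 0.0609 CPM in WT (SD, n = 3 each). The fitted log2 differences from WT were 5.20 ± 2.24 (SE) in APP/PS1 and 5.05 ± 2.23 in APP/PS1xRIPK1KD. Without WT replicate 2, the 1 WT library with counts, they were 8.91 and 8.76, values that depend on the prior count. Without APP/PS1xRIPK1KD replicate 3, the difference of APP/PS1xRIPK1KD was 0.54 from WT and -4.65 from APP/PS1.

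Col1a1, on chromosome 11 from 94936224 to 94953042, encodes the α1 chain, of which each type I trimer has a pair. It was counted at 1, 44 and 0 in APP/PS1xRIPK1KD, at 0, 0 and 5 in APP/PS1 and at 0, 1 and 2 in WT, and it did not pass the low-count filter. The highest counts of the α chains of type I collagen fell in different libraries, which for Col1a1 rests on 1 library. The library with 44 counts of Col1a1 had 0 of Col1a2, and the library with 201 of Col1a2 had 0 of Col1a1. The APP/PS1 library with 115 of Col1a2 had 0 of Col1a1, whereas APP/PS1 replicate 3 held both, with 95 of Col1a2 and 5 of Col1a1. Pooled over libraries and divided by library size, the ratio of Col1a1 counts was 12.0 for APP/PS1xRIPK1KD against WT (95% counting interval 3.85 to 60.3) and 1.65 for APP/PS1 against WT (0.321 to 10.6). Without APP/PS1xRIPK1KD replicate 2, the mean of that genotype was 0.0102 CPM.

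Dcn encodes decorin, a small leucine-rich proteoglycan that binds type I collagen fibrils, and lies on chromosome 10 from 97479609 to 97518143. Its counts were 26, 25 and 14 in APP/PS1xRIPK1KD, 43, 17 and 123 in APP/PS1 and 13, 0 and 2 in WT. APP/PS1 replicates 1 and 3 stood apart at 2.71 and 2.44 CPM, since none of the other 7 libraries passed 0.571 CPM. APP/PS1xRIPK1KD averaged 0.451 ± 0.173 CPM, APP/PS1 1.82 ± 1.31 CPM and WT 0.142 ± 0.210 CPM (SD, n = 3 each). The levels of each pair of genotypes overlapped. Fitted log2 differences were -2.00 ± 1.43 (SE) for APP/PS1xRIPK1KD against APP/PS1, 1.67 ± 1.45 for APP/PS1xRIPK1KD against WT and 3.67 ± 1.55 for APP/PS1 against WT. WT replicate 1 held 13 of the 15 WT counts, and without it the differences from WT were 4.17 in APP/PS1xRIPK1KD and 6.17 in APP/PS1.

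Lum encodes lumican, another small leucine-rich proteoglycan of collagen matrix, and lies downstream of Dcn on the same strand, on chromosome 10 from 97565128 to 97572703. Its 0 counts allow up to 0.0541 to 0.189 CPM, depending on the library. No fold can be given for it.

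Pdgfra encodes the α receptor for platelet-derived growth factor and lies on chromosome 5 from 75152292 to 75198215. It was counted at 63, 5 and 33 in APP/PS1xRIPK1KD, at 12, 137 and 92 in APP/PS1 and at 3, 0 and 47 in WT. The levels averaged 0.665 ± 0.589, 1.71 ± 0.905 and 0.365 ± 0.557 CPM in APP/PS1xRIPK1KD, APP/PS1 and WT (SD, n = 3 each), and libraries of all genotypes overlapped. WT replicate 3 held 47 of the 50 WT counts, and without it the WT mean was 0.0443 CPM. The fitted log2 difference from WT was 0.85 in APP/PS1xRIPK1KD and 2.22 in APP/PS1 with all libraries, and 3.85 and 5.22 without WT replicate 3. Without APP/PS1xRIPK1KD replicate 1, that of APP/PS1xRIPK1KD was -0.04. In 2 of the libraries Pdgfra was high where Col1a2 or Col3a1 was low, the 63 counts of APP/PS1xRIPK1KD replicate 1 and the 47 of WT replicate 3. The summed level of 9 other oligodendrocyte precursor markers lay between 10.1 and 14.99 CPM in APP/PS1xRIPK1KD, between 7.4998 and 14.3 CPM in APP/PS1 and between 8.27 and 14.96 CPM in WT. Gpr17, which encodes a receptor of differentiating oligodendrocyte precursors, made up 79.6% of that sum, while Sox10, Lhfpl3, Olig2, Olig1, Neu4 and C1ql1 averaged 0 to 0.11 CPM each over all libraries. Its part in the Pdgfra counts was not tested.

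Angptl2 encodes a secreted angiopoietin-like glycoprotein and lies on chromosome 2 from 33216069 to 33247717. It was counted at 2, 72 and 155 in APP/PS1xRIPK1KD, at 42, 70 and 99 in APP/PS1 and at 0, 2 and 0 in WT. Every APP/PS1 library lay above every WT library, while APP/PS1xRIPK1KD replicate 1, at 0.0408 CPM, lay within the WT range. The means were 1.49 ± 1.38, 1.97 ± 0.670 and 0.0176 ± 0.0304 CPM in APP/PS1xRIPK1KD, APP/PS1 and WT (SD, n = 3 each). With 2 counts in all of WT, the pooled count ratio was 104 for APP/PS1 against WT (95% counting interval 28.5 to 867) and 91.5 for APP/PS1xRIPK1KD against WT (25.0 to 760). Angptl2 lies wholly within the span of Ralgps1, a gene on the opposite strand, with no shared exon bases, and the libraries keep no strand. Ralgps1 was counted at 131, 90 and 97 in APP/PS1xRIPK1KD, at 6, 113 and 37 in APP/PS1 and at 79, 87 and 89 in WT. Its part in the Angptl2 counts was not tested.

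Igf2 encodes the imprinted growth factor IGF-II, which brain meninges, choroid plexus and vessel-associated cells secrete, and lies on chromosome 7 from 142650766 to 142666816 on the - strand. Its expected counts were 490, 494 and 496 in APP/PS1xRIPK1KD, 41, 173 and 429 in APP/PS1 and 293, 152 and 130 in WT. The corresponding levels were 9.995, 11.3 and 8.94 CPM in APP/PS1xRIPK1KD, 2.58, 3.22 and 8.52 CPM in APP/PS1 and 8.64, 4.01 and 2.78 CPM in WT. All 3 APP/PS1xRIPK1KD libraries lay above all 6 others, with a lowest value of 8.94 CPM set against highest values of 8.52 CPM in APP/PS1 and 8.64 CPM in WT. APP/PS1xRIPK1KD averaged 10.1 ± 1.17 CPM, APP/PS1 4.78 ± 3.26 CPM and WT 5.14 ± 3.09 CPM (SD, n = 3 each). The fitted log2 difference was 1.07 ± 0.52 (SE) for APP/PS1xRIPK1KD against APP/PS1, 0.97 ± 0.52 for APP/PS1xRIPK1KD against WT and -0.09 ± 0.51 for APP/PS1 against WT, whose sign turned without APP/PS1 replicate 1, APP/PS1 replicate 2 or WT replicate 1. Without APP/PS1 replicate 3 the difference between APP/PS1xRIPK1KD and APP/PS1 was 1.79, and without WT replicate 1 that between APP/PS1xRIPK1KD and WT was 1.57. Igf2 shares 3596 exon bases with the annotated gene Gm49394 on the same strand, which was not analysed here. H19, the neighbouring imprinted RNA, was counted at 5, 1 and 0 in APP/PS1xRIPK1KD, at 1, 31 and 0 in APP/PS1 and at 0, 51 and 0 in WT, and did not follow Igf2.

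**Figure D1:**
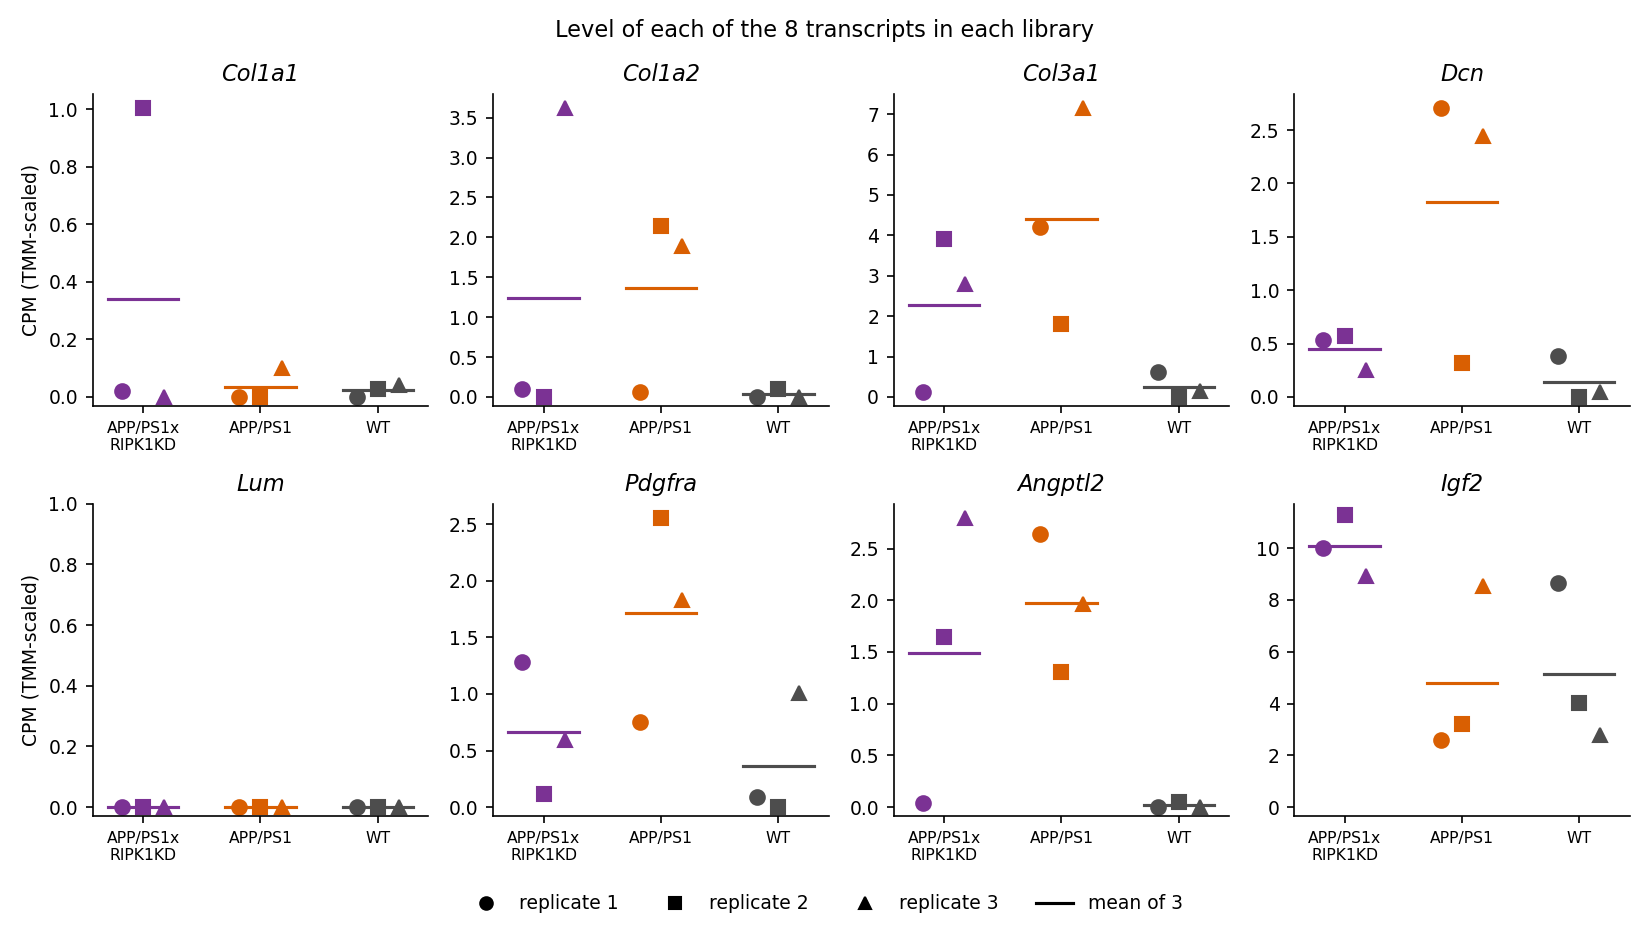
Level of each of the 8 transcripts in CPM (linear axis, scaled per panel) in the 3 libraries of each genotype, with symbols for replicates and a line for the mean. Igf2 was high in all 3 APP/PS1xRIPK1KD libraries (8.94 to 11.3 CPM), and Angptl2 was close to 0 in WT. The highest values of Col1a1 and Col1a2 fell in different libraries, and Lum was 0 throughout.

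Per kilobase of the longest coding transcript and averaged over all 9 libraries, the order of levels was Igf2 (1.41 ± 0.732 CPM per kilobase), Dcn (0.458 ± 0.582), Col3a1 (0.415 ± 0.439), Angptl2 (0.348 ± 0.350), Col1a2 (0.165 ± 0.250), Pdgfra (0.134 ± 0.126), Col1a1 (0.0224 ± 0.0554) and Lum at 0 (SD, n = 9). Igf2 stood above its neighbour by more than both SDs. Dcn and Col3a1, Col3a1 and Angptl2, Angptl2 and Col1a2, and Col1a2 and Pdgfra differed by less than either SD, and the gap between Pdgfra and Col1a1 lay between their SDs. Within genotypes the order changed. In APP/PS1xRIPK1KD, Igf2 at 2.13 ± 0.248 CPM per kilobase was well above Angptl2, next at 0.447 ± 0.414. In APP/PS1, Dcn at 1.04 ± 0.745 and Igf2 at 1.01 ± 0.691 were level within their spread. In WT, Igf2 at 1.09 ± 0.655 stood above Dcn at 0.0808 ± 0.1195 CPM per kilobase (SD, n = 3 each).

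Summed over the 8 transcripts, the level was 12.1, 18.5 and 18.99 CPM in APP/PS1xRIPK1KD, 13.0, 11.3 and 23.9 CPM in APP/PS1 and 9.74, 4.19 and 4.02 CPM in WT. The make-up of that sum differed between libraries as well as its size. Igf2 took 82.6%, 60.9% and 47.1% of the member counts in APP/PS1xRIPK1KD, 19.9%, 28.4% and 35.7% in APP/PS1 and 88.8%, 95.6% and 69.1% in WT, so every APP/PS1 library had a smaller Igf2 share than every other library. Without Igf2 the sum was 2.10, 7.23 and 10.1 CPM in APP/PS1xRIPK1KD, 10.4, 8.13 and 15.4 CPM in APP/PS1 and 1.09, 0.185 and 1.24 CPM in WT. Both transgenic genotypes then lay above WT in every library, and APP/PS1xRIPK1KD overlapped APP/PS1. Leaving Igf2 out was chosen after its values were seen. In log2 units, the ratio of mean sums was 0.04 with Igf2 and -0.81 without it for APP/PS1xRIPK1KD against APP/PS1, 1.47 and 2.95 for APP/PS1xRIPK1KD against WT, and 1.43 and 3.75 for APP/PS1 against WT. The SD of log2 sums within genotypes was 0.48 to 0.65 with Igf2 and 0.90 to 1.37 without it.

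Within replicates 1 and 2, which held Xist, the mean sum of the 8 was 15.3 CPM in APP/PS1xRIPK1KD, 12.2 CPM in APP/PS1 and 6.96 CPM in WT, and within replicate 3 the sum was 18.99, 23.9 and 4.02 CPM. APP/PS1xRIPK1KD was thus above APP/PS1 in replicates 1 and 2 and below it in replicate 3. Within replicates 1 and 2 the mean sum without Igf2 was 4.67 CPM in APP/PS1xRIPK1KD, 9.26 CPM in APP/PS1 and 0.638 CPM in WT. Within replicate 3, which held Y-linked transcripts, it was 10.1 CPM in APP/PS1xRIPK1KD, 15.4 CPM in APP/PS1 and 1.24 CPM in WT. Without Igf2, the order APP/PS1, APP/PS1xRIPK1KD, WT from high to low was thus seen on both sides of the split. At a count of 10 or more, 3, 5 and 6 of the 8 transcripts were detected in APP/PS1xRIPK1KD, 5, 6 and 6 in APP/PS1 and 3, 1 and 2 in WT.

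**Figure D2:**
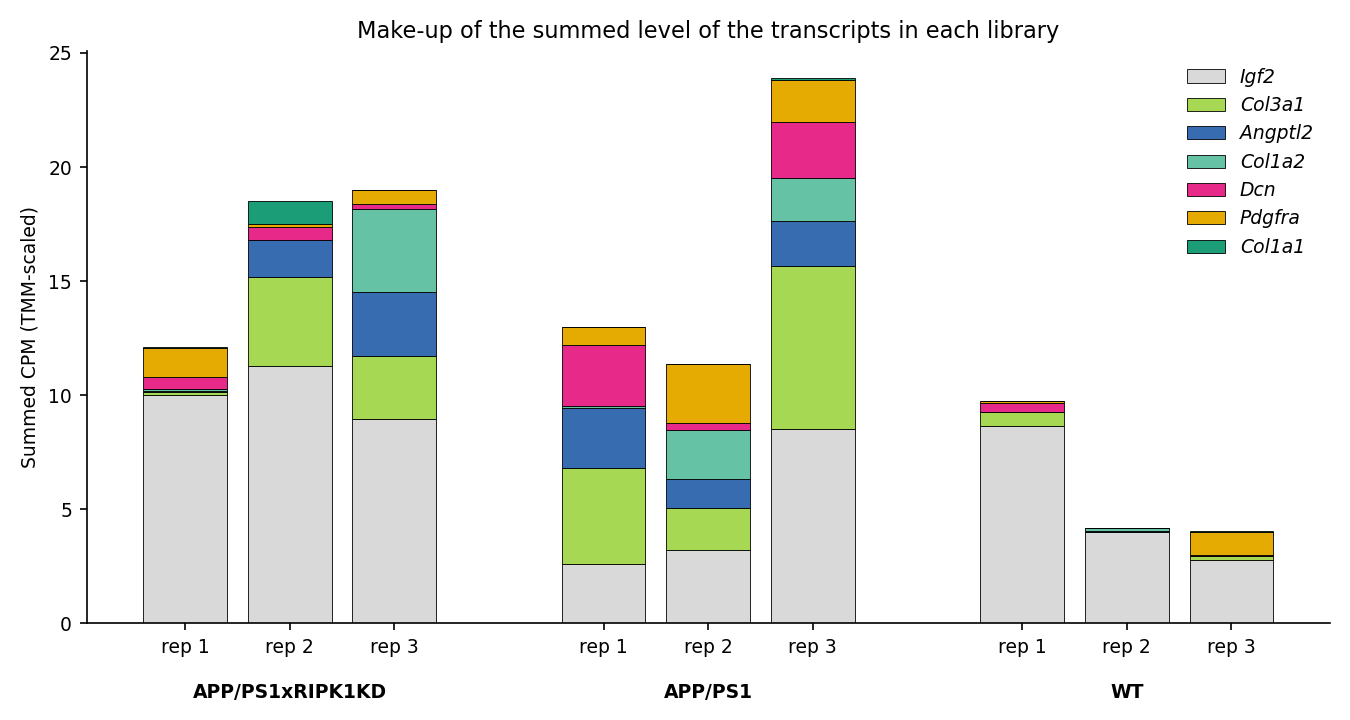
Stacked bars of the CPM of the transcripts in each of the 9 libraries, from 0 on a linear axis, with Igf2 at the bottom. Igf2 (grey) makes up most of each WT bar, 69.1% to 95.6%, and 19.9% to 35.7% of each APP/PS1 bar, while the coloured part differs between libraries in which gene carries it.

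Of the 8 transcripts, 6 passed a filter on low counts and entered the fit across 13317 genes. Passing the filter can rest on the genotype with the high counts, so the 6 are not a neutral sample of the 8. edgeR's quasi-likelihood test called 0 of the 6 at an FDR of 0.05 in each comparison. Over all genes it called 0.00751% for APP/PS1xRIPK1KD against APP/PS1, 0.0375% for APP/PS1xRIPK1KD against WT and 0.0225% for APP/PS1 against WT, and 637, 823 and 818 genes (4.78%, 6.18% and 6.14%) had an unadjusted p under 0.05. DESeq2 called 0.15%, 0.473% and 0.338% of genes in those comparisons. Among the 6 it called Angptl2, in APP/PS1xRIPK1KD against WT (DESeq2 adjusted p = 0.015) and in APP/PS1 against WT (DESeq2 adjusted p = 0.0118), where edgeR's quasi-likelihood FDR was 0.552 and 0.711. In the authors' deposited table for APP/PS1 against WT, with 26 of 12460 genes (0.209%) past an FDR of 0.05, Angptl2 was the 1 member past it, at a log2 fold change of 6.73 and an FDR of 0.0118. These calls use the same libraries by which the members were chosen. They are neither independent of each other nor a separate test of Angptl2. The fitted size of the Angptl2 difference, 6.61 ± 1.70 (SE) in log2 units, depends on the prior count, since WT was nearly at 0, and was 9.42 without WT replicate 2, which held both WT counts.

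The direction of the fitted differences was read against all genes. For APP/PS1xRIPK1KD against APP/PS1, 1 of the 6 lay above 0, Igf2, and the median log2 difference of the 6 was -0.67, beside -0.003 over all genes. For APP/PS1xRIPK1KD against WT, 6 of 6 lay above 0 with a median of 2.41, beside 0.003. For APP/PS1 against WT, 5 of 6 lay above 0 with a median of 3.89, beside 0.002, and Igf2 was the exception. Libraries did not overlap, with the values higher, for 1 of the 6 in APP/PS1xRIPK1KD against APP/PS1 (Igf2, background 5.32% of genes), for 1 in APP/PS1xRIPK1KD against WT (Igf2, background 6.04%) and for 2 in APP/PS1 against WT (Col3a1 and Angptl2, background 5.47%). The comparisons share libraries and the members were chosen with these differences known, so nothing is read from these counts.

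**Figure D3:**
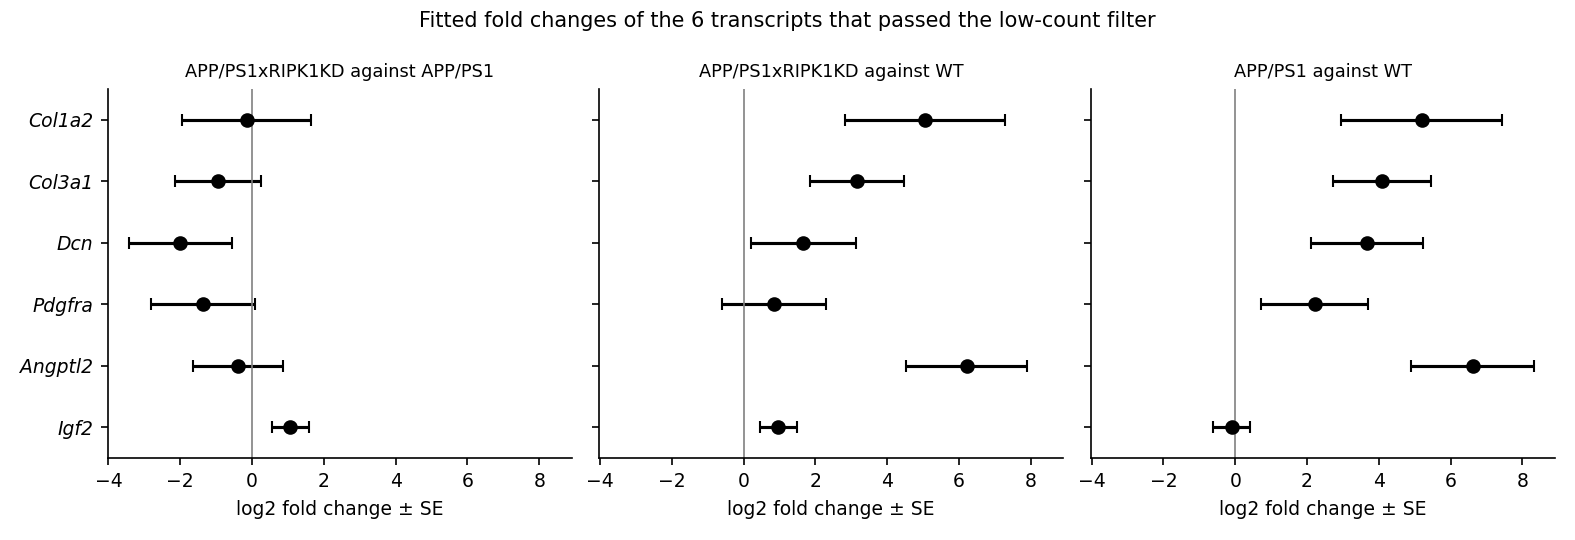
Fitted log2 fold changes (horizontal axis) with SE bars for the 6 transcripts that passed the filter, 1 panel per comparison. In both comparisons with WT the matrix transcripts lie above 0 with wide bars, and Igf2 lies near 1 in the comparisons of APP/PS1xRIPK1KD and near 0 in APP/PS1 against WT.

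The other genes of the pathway were taken from 8 lists with 122 members, of which 79 were tested. edgeR and DESeq2 called 0 of the 79 in each comparison. At an unadjusted p under 0.05, edgeR counted 1 higher and 5 lower in APP/PS1xRIPK1KD against APP/PS1, where the background over all genes was 2.44% higher and 2.34% lower. It counted 8 higher and 3 lower in APP/PS1xRIPK1KD against WT (background 2.97% and 3.21%) and 8 higher and 1 lower in APP/PS1 against WT (background 3.49% and 2.65%). Of the 20 tested other fibroblast markers, 6 had a fitted log2 difference above 0 in APP/PS1xRIPK1KD against APP/PS1 (median -0.34), 13 in APP/PS1xRIPK1KD against WT (median 0.43) and 16 in APP/PS1 against WT (median 0.80). Slc6a20a, an amino acid transporter of the meninges, was at 0.510, 0.613 and 0.198 CPM in APP/PS1xRIPK1KD, at 2.38, 4.58 and 1.67 CPM in APP/PS1 and at 0.854, 0.109 and 0.0642 CPM in WT, so APP/PS1 stood above both. Tbx18, a transcription factor of mural and meningeal cells, averaged 0.726 ± 0.333, 0.226 ± 0.221 and 0.0239 ± 0.00485 CPM in APP/PS1xRIPK1KD, APP/PS1 and WT (SD, n = 3 each). The WT libraries held at most 1 count of Tbx18 each, below the floor of 3 counts.

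Among other fibrillar collagen chains, 4 of 8 were tested. The type V chain Col5a2, which assembles with type I collagen, averaged 16.3 ± 9.91 CPM in APP/PS1xRIPK1KD, 30.9 ± 10.4 CPM in APP/PS1 and 24.3 ± 22.5 CPM in WT (SD, n = 3 each), and the libraries of the genotypes overlapped. Its partner Col5a1 had 26, 0 and 42 counts in APP/PS1xRIPK1KD, 11, 0 and 95 in APP/PS1 and 0 in all WT libraries. Of collagen-modifying and cross-linking genes, 24 of 31 were tested and their median log2 differences were -0.12, -0.01 and 0.05 for APP/PS1xRIPK1KD against APP/PS1, APP/PS1xRIPK1KD against WT and APP/PS1 against WT. P4ha1, the catalytic subunit of a collagen prolyl hydroxylase, averaged 78.5 ± 14.9 CPM in APP/PS1xRIPK1KD, 69.2 ± 16.9 CPM in APP/PS1 and 44.5 ± 8.61 CPM in WT (SD, n = 3 each). Its log2 difference from WT was 0.82 ± 0.21 (SE) in APP/PS1xRIPK1KD, at an edgeR quasi-likelihood FDR of 0.549.

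Of other small leucine-rich proteoglycans, 7 of 12 were tested, with a median log2 difference of -0.66 for APP/PS1xRIPK1KD against APP/PS1, -0.10 for APP/PS1xRIPK1KD against WT and 1.29 for APP/PS1 against WT. Prelp, a proteoglycan that anchors basement membrane to connective tissue, stood at 3.61, 4.38 and 3.95 CPM in APP/PS1xRIPK1KD, at 2.52, 2.78 and 3.06 CPM in APP/PS1 and at 1.15, 0 and 0.235 CPM in WT, without overlap between any of the genotypes. Ogn, which encodes osteoglycin, was counted at 0, 2 and 5 in APP/PS1xRIPK1KD, at 19, 102 and 71 in APP/PS1 and at 10, 10 and 0 in WT. Bgn, the closest relative of decorin, averaged 18.7 ± 8.37, 49.5 ± 31.4 and 20.2 ± 9.53 CPM in APP/PS1xRIPK1KD, APP/PS1 and WT (SD, n = 3 each). None of these 3 passed the FDR threshold of edgeR or of DESeq2 in any comparison.

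Around Pdgfra, the ligand Pdgfb averaged 178 ± 13.9 CPM in APP/PS1xRIPK1KD and 189 ± 26.4 CPM in APP/PS1, and the mural receptor Pdgfrb stood at 2.35, 6.16 and 6.99 CPM in APP/PS1xRIPK1KD, at 15.8, 1.416 and 4.41 CPM in APP/PS1 and at 1.56, 0 and 0.300 CPM in WT. Around Igf2, 11 of 15 genes of the insulin-like growth factor system were tested, with a median log2 difference of -0.002 for APP/PS1xRIPK1KD against APP/PS1, -0.21 for APP/PS1xRIPK1KD against WT and -0.09 for APP/PS1 against WT. Igfbp2, a binding protein of insulin-like growth factors, stood at 8.85, 3.26 and 2.74 CPM in APP/PS1xRIPK1KD, at 0.567, 2.61 and 1.77 CPM in APP/PS1 and at 2.51, 0.185 and 0.621 CPM in WT, and like Igf2 its 3 APP/PS1xRIPK1KD libraries lay above all others. Igfbp7, which endothelial cells express at high level, averaged 1070 ± 245 CPM in APP/PS1xRIPK1KD, 1197 ± 125 CPM in APP/PS1 and 1495 ± 96.6 CPM in WT (SD, n = 3 each). Of the 6 other angiopoietin-like genes 4 were tested, and Angptl4, an inhibitor of lipoprotein lipase, averaged 41.3 ± 10.2, 53.8 ± 11.6 and 65.3 ± 24.6 CPM in APP/PS1xRIPK1KD, APP/PS1 and WT (SD, n = 3 each). Of 8 collagen receptors 5 were tested, and the integrin subunit Itgb1 averaged 459 ± 59.6, 503 ± 56.9 and 432 ± 43.7 CPM in APP/PS1xRIPK1KD, APP/PS1 and WT (SD, n = 3 each).

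Transcripts of some other cell types moved with the members. Over the 9 libraries, Pearson r with the log2 member sum without Igf2 was 0.953 for the log2 sum of pericyte markers. It was 0.744 for smooth muscle markers and 0.743 for the other small leucine-rich proteoglycans. For the other fibroblast markers it was 0.420, for oligodendrocyte markers -0.084 and for astrocyte markers 0.018. The libraries share their genotype structure, and with genotype means subtracted the pericyte value was 0.729. Summed over 10 pericyte markers, the level was 59.3, 79.2 and 111 CPM in APP/PS1xRIPK1KD, 109, 152 and 116 CPM in APP/PS1 and 26.9, 15.1 and 22.7 CPM in WT, and each of the 10 was counted in every genotype. As with the member sum without Igf2, APP/PS1xRIPK1KD replicate 1 was the lowest transgenic library and every transgenic library lay above WT. edgeR's quasi-likelihood test called 2 of the 10 higher in APP/PS1 against WT, Vtn and Atp13a5 (FDR 0.0135 each, background 0.0225% of genes). In APP/PS1xRIPK1KD against WT it called 1, Atp13a5 (FDR 0.0122, background 0.0375%). Vtn narrowly missed the threshold there, at a log2 difference of 2.29 ± 0.36 (SE) and an FDR of 0.0501. DESeq2 called 7 and 5 of the 10 higher in those comparisons (background 0.338% and 0.473% of genes, either direction). At an unadjusted edgeR p under 0.05, 8 and 7 were higher (background 3.49% and 2.97%). Libraries did not overlap, with the values higher, for 9 and 8 of the 10 (background 5.47% and 6.04%). In APP/PS1xRIPK1KD against APP/PS1 both tools called 0, with 1 lower at an unadjusted p under 0.05 (background 2.34%). Each of the edgeR calls ended when certain single libraries were left out, with an FDR of up to 0.0752 and little change in the fold. In APP/PS1 against WT, the log2 difference of Vtn was 2.98 with all libraries and 2.90 to 3.06 where the call ended. That of Atp13a5 was 5.23 and 4.81 to 5.38 in APP/PS1 against WT, and 4.98 and 4.82 to 5.37 in APP/PS1xRIPK1KD against WT. The call of Vtn ended without APP/PS1 replicate 1, APP/PS1 replicate 3 or WT replicate 3. That of Atp13a5 ended without APP/PS1 replicate 3, WT replicate 2 or WT replicate 3 in APP/PS1 against WT, and without APP/PS1xRIPK1KD replicate 3, WT replicate 1 or WT replicate 2 in APP/PS1xRIPK1KD against WT. Within replicates 1 and 2 only, the FDR was 0.116 for Vtn in APP/PS1 against WT, and for Atp13a5 0.19 in APP/PS1xRIPK1KD against WT and 0.146 in APP/PS1 against WT. The sum of 12 smooth muscle markers, 57.7% of it from Smtn, was 310 to 609 CPM in APP/PS1xRIPK1KD, 444 to 575 CPM in APP/PS1 and 301 to 408 CPM in WT. edgeR and DESeq2 called 0 of the 11 tested. At an unadjusted p under 0.05 edgeR counted 0 of them in APP/PS1xRIPK1KD against APP/PS1 (background 4.78% in either direction). It counted 3 in APP/PS1xRIPK1KD against WT (background 6.18%) and 4 in APP/PS1 against WT (background 6.14%). The median log2 differences of the 11 were -0.34, 1.64 and 2.08 in those comparisons. Libraries did not overlap, with the values higher, for 1 of the 11 in APP/PS1xRIPK1KD against WT (background 6.04% of genes). In APP/PS1 against WT this held for 8 of the 11 (background 5.47%). The sum of 10 oligodendrocyte markers, 93.0% of it from Mal, was 426 to 533 CPM in APP/PS1xRIPK1KD, 589 to 712 CPM in APP/PS1 and 590 to 751 CPM in WT. Of its 8 tested genes, 3 were lower in APP/PS1xRIPK1KD against APP/PS1 at an unadjusted p under 0.05 (background 2.34%). In APP/PS1xRIPK1KD against WT 1 was lower (background 3.21%), and in APP/PS1 against WT 4 were higher (background 3.49%). The median log2 differences were -1.74, 0.33 and 2.63 in that order. The sum of 10 astrocyte markers, 87.4% of it from Gja1, was 77.6 to 94.5 CPM in APP/PS1xRIPK1KD, 72.3 to 79.6 CPM in APP/PS1 and 39.4 to 111 CPM in WT. Of its 7 tested genes, 0, 2 and 3 were higher at an unadjusted p under 0.05 in those comparisons (background 2.44%, 2.97% and 3.49%). The median log2 difference was 1.60 in APP/PS1 against WT. edgeR called 0 genes of either list. DESeq2 called 1 oligodendrocyte gene lower in APP/PS1xRIPK1KD against WT (background 0.473%, either direction) and 2 astrocyte genes higher in APP/PS1 against WT (background 0.338%). The part of these cell types in the member levels was not tested.

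Choroid plexus epithelium markers, which mark another Igf2-secreting tissue, summed to 327, 241 and 190 CPM in APP/PS1xRIPK1KD, 88.3, 171 and 154 CPM in APP/PS1 and 101, 65.7 and 72.5 CPM in WT over 10 genes. As for Igf2, all 3 APP/PS1xRIPK1KD libraries lay above all 6 others. Ttr, the transthyretin gene, made up 80.8% of the sum, at 296, 208 and 162 CPM in APP/PS1xRIPK1KD, 49.5, 128 and 134 CPM in APP/PS1 and 66.6, 38.4 and 58.2 CPM in WT. Aqp1 and F5, next in level, averaged 11.1 and 5.04 CPM in APP/PS1xRIPK1KD. They were higher in APP/PS1, at 13.2 and 10.8 CPM, and in WT, at 13.4 and 7.40 CPM. Of the 9 tested markers, 7 had a fitted log2 difference above 0 in APP/PS1xRIPK1KD against APP/PS1, and 7 against WT. Of the 9 tested choroid plexus markers edgeR called 0. At an unadjusted p under 0.05, 1, 3 and 2 were higher in APP/PS1xRIPK1KD against APP/PS1, APP/PS1xRIPK1KD against WT and APP/PS1 against WT. The background over all genes was 2.44%, 2.97% and 3.49%. DESeq2 called 1 of the markers, in APP/PS1xRIPK1KD against WT (background 0.473%). Their part in the Igf2 level was not tested. Immediate early genes, which tissue dissociation induces, summed to 934 to 1404 CPM in APP/PS1xRIPK1KD, 1323 to 2161 CPM in APP/PS1 and 957 to 1589 CPM in WT. Of 12 such genes, 7 were lower in APP/PS1xRIPK1KD against APP/PS1 at an unadjusted p under 0.05 (background 2.34% of genes). In APP/PS1 against WT 6 were higher (background 3.49%), and in APP/PS1xRIPK1KD against WT the count was 0. edgeR called 0 of the 12 in each comparison and DESeq2 called 1, in APP/PS1 against WT (background 0.338%). The part of this response in the member levels was not tested. The levels of 12 endothelial markers summed to 21630 to 24429 CPM in APP/PS1xRIPK1KD, 21892 to 25328 CPM in APP/PS1 and 23587 to 25762 CPM in WT.

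**Figure D4:**
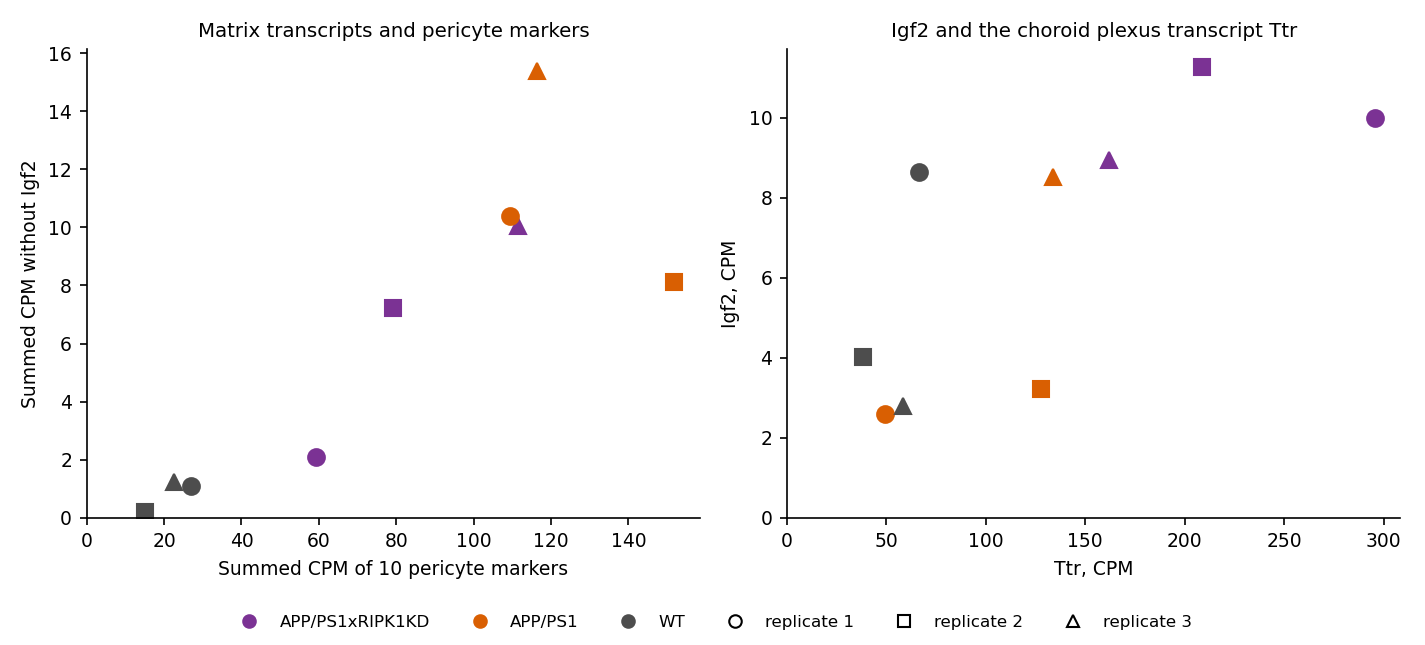
Left, summed CPM of the members without Igf2 against the summed CPM of 10 pericyte markers. Right, CPM of Igf2 against CPM of Ttr. Each point is 1 of 9 libraries, coloured by genotype with symbols for replicates. WT libraries lie at the lower left on the left, and the 3 APP/PS1xRIPK1KD libraries have the highest Ttr and Igf2 values on the right.

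Among 11562 other genes of at least 1 CPM on average, those whose log2 level was most like the log2 sum of the 8 members over the 9 libraries were Tgfa, Cnot1, Rapgef2, Vcl, Fcgr3, Prelp, Rmdn1 and Flna, with Pearson r between 0.907 and 0.955. Against the sum without Igf2, chosen after its values were seen, the 8 most alike were Trim68, Vtn, Higd1b, Rgs4, Wtip, Des, Golga5 and Smarcad1, with r between 0.928 and 0.966. The lists share no gene. The libraries share their genotype structure, and r over 9 libraries is a description of likeness.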

How the data were processed

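Per the labels, RNA of sorted CD31+CD45- brain cells was made into Smart-seq2 libraries with 12 PCR cycles. Smart-seq2 as usually run marks neither strand nor single molecules. The authors deposited expected counts per gene from RSEM, and 28.3% of the values were not whole. Alignment to mm10 (GRCm38) and counting used Bowtie 0.12.2 and RSEM, with edgeR 3.10.2 for testing, per the submitters' processing notes, and no source used here names the annotation. The authors also deposited a table of log2 fold changes and a likelihood ratio score with its p-value and FDR for APP/PS1 against WT.

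Expected counts were rounded, and filterByExpr (minimum count 10, minimum total 15) kept 13317 of 23420 genes. CPM is the expected count over the TMM-scaled library total, whose range is given with the levels. A quasi-likelihood model (edgeR 4.0.16, R 4.3.3) with a coefficient for each genotype took all 9 libraries together, and the 3 contrasts were 2-sided with Benjamini-Hochberg adjustment. Alternatives were DESeq2 1.42.0, other scalings and filters, a replicate block, libraries left out and a likelihood ratio test, the last added after seeing the data. The fit was tested on simulated data. Positions are from GENCODE M21 and figures were drawn with matplotlib 3.10.9.

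The members and lists were chosen with earlier results of these data known. Named genes were the members, the 2 pathway genes per list and comparison with the smallest p or those past the FDR (some given as counts), the leading genes of cell type lists, the 8 genes most like the members, Vtn and Atp13a5; Mgp, Fbln2, Ripk1, Ralgps1 and H19 were added as checks. Of 244 listed genes, 235 matched by symbol, 8 through an older one, and 1 was unmatched. Lists for microglia, neurons, leukocytes and erythroid cells were tested too. edgeR and DESeq2 called 0 of their genes in each comparison. At an unadjusted edgeR p under 0.05 there were 0, 1 and 0 in APP/PS1xRIPK1KD against APP/PS1, APP/PS1xRIPK1KD against WT and APP/PS1 against WT. The background over all genes was 4.78%, 6.18% and 6.14%. Each library came from a mouse per the labels, and p-values measure the spread between these 9 libraries.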

Additional observations from a re-analysis of the deposited data

How the results depend on the processing

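RLE scaling or leaving out Rn45s changed none of the 3 counts of genes called, and the tool changed each of them. For APP/PS1xRIPK1KD against APP/PS1, 1 gene was called by the quasi-likelihood test, 20 by DESeq2, 17 by the likelihood ratio test, 0 in replicates 1 and 2 only and 0 to 4 with a library left out. For APP/PS1xRIPK1KD against WT it was 5, against 63 by DESeq2, 47 by the likelihood ratio test, 14 without the low-count filter, 8 in replicates 1 and 2 only and 2 to 9 with a library left out. For APP/PS1 against WT it was 3, against 45 by DESeq2, 29 by the likelihood ratio test, 7 without the filter and 1 to 5 with a library left out. With the replicate number as a block the counts were 0, 0 and 2, and the FDR of Atp13a5 was 0.0707 in APP/PS1xRIPK1KD against WT and 0.101 in APP/PS1 against WT. Same-numbered libraries deviated together with correlations of only -0.02 to 0.10, and they are not treated as pairs. The number does follow the split in Xist and Y-linked transcripts in every genotype, which the main fit leaves out. Why the counts of genes called differed was not tested.

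The likelihood ratio test also called Angptl2, in APP/PS1 against WT (adjusted p = 0.0295) and in APP/PS1xRIPK1KD against WT (adjusted p = 0.0373). Over 16 alternatives each, its adjusted p ran from 0.0118 to 0.981 and from 0.015 to 0.891. All of these values use the libraries by which the members were chosen, so they add no separate support. Of 285 member fold changes under alternatives, 276 kept their sign. The 9 others arose with a library left out: 4 for Col1a2 and 1 for Angptl2 in APP/PS1xRIPK1KD against APP/PS1, 1 for Pdgfra in APP/PS1xRIPK1KD against WT, and 3 for Igf2 in APP/PS1 against WT.

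The log2 ratio of summed member levels ran, with a library left out, from -0.16 to 0.44 for APP/PS1xRIPK1KD against APP/PS1, from 1.25 to 2.01 for APP/PS1xRIPK1KD against WT and from 1.02 to 1.97 for APP/PS1 against WT. Without Igf2 it was -0.81, 2.95 and 3.75, in replicates 1 and 2 only it was 0.33, 1.14 and 0.80, and in replicate 3 only it was -0.33, 2.24 and 2.57, in the same order of comparisons. Without Igf2 and with a library left out it stayed below 0 for APP/PS1xRIPK1KD against APP/PS1 (-1.28 to -0.39) and above 2 against WT in both (2.47 to 3.36 and 3.28 to 4.15). Signs turned, with a library left out, for Pdgfb (-0.17 to 0.019) and Atp13a5 (-0.50 to 0.013) in APP/PS1xRIPK1KD against APP/PS1 and for Ddr1 (-0.87 to 0.0014) in APP/PS1xRIPK1KD against WT. At these depths a difference in Lum, or in Col1a1 between APP/PS1 and WT, was not detectable.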
